A study of Mus musculus with 117 samples.

Results

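The libraries compared here were the astrocyte libraries of the mouse spinal cord at 5 d (n = 4) and at 2 d (n = 5) after spinal cord injury (SCI), 9 of the 117 samples of the series, chosen by their titles. Both groups were labelled female and of the genotype Aldh1l1-CreERT2-RiboTag, and the study's methods describe young adult C57BL/6 mice. RiboTag places a hemagglutinin tag on the ribosomal protein Rpl22 in cells where Cre has acted. Aldh1l1-CreERT2 is a tamoxifen-dependent Cre driven by Aldh1l1, a gene used in the mature cord mainly by astrocytes. Tagged ribosomes and the RNA bound to them were precipitated from frozen tissue, and unbound flow-through RNA was sequenced in separate libraries. The injury was a complete crush at a thoracic level, and the tissue block was centred on the lesion core and held border tissue on both sides, so that all cells of the lesion were in the lysate. Uninjured mice of the same genotype (n = 4) and mice taken 14 to 70 d after SCI (n = 4 at each of 14, 28, 42 and 70 d) entered the fit and are given as levels beside the results. Total counts of the astrocyte libraries were 72619805 to 90452378 at 2 d and 97695228 to 112941084 at 5 d.

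Astrocytes near a crush lesion leave their resting state within a day, re-enter the cell cycle over the following days and later form a border around the lesion core. In the resting cord they clear glutamate and potassium, make cholesterol for their neighbours and secrete apolipoprotein E. Reactive astrocytes produce intermediate filaments, chemokines and matrix, and several of these responses run through STAT3, NF-κB, MAPK and TGF-β signalling.

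The sex labels did not match all libraries. Transcripts of 4 Y-linked genes, Ddx3y, Eif2s3y, Kdm5d and Uty, summed to 109 to 123 CPM (counts scaled to library size) in 2 d astrocyte replicates 1, 4 and 5, and to 0 to 0.21 CPM in replicates 2 and 3. In the 5 d astrocyte libraries the sum was 0 to 0.0177 CPM. The 4 astrocyte libraries labelled male at 5 d held 62.1 to 79.6 CPM. All 5 flow-through libraries of 2 d held 85 to 143 CPM, including those numbered 2 and 3, so that these 2 numbers did not join libraries of like sex. The 5 d flow-through library 4, labelled male, held 0.0643 CPM or less, as did the other three. Each main count is therefore also given from the 2 d libraries without Y-linked transcripts (n = 2) against the same 5 d libraries, and from the 2 d libraries with them (n = 3) against the male 5 d libraries (n = 4). The 2 d flow-through libraries also had fewer genes with any count, 15763 to 17934 against 19353 to 19935 at 5 d. The same held for the astrocyte libraries, with 17798 to 18595 genes at 2 d against 19151 to 19291 at 5 d, where total counts were also higher. The part of this difference in the counts of calls was not tested.

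The astrocyte markers were present at both times, and their sum was 22370 to 30520 CPM at 2 d and 22680 to 34510 CPM at 5 d, with overlap, against 50430 to 60580 CPM in uninjured mice. Gfap, which belongs to these markers, made up most of the sum at 2 d and 5 d. Of the 12 markers, 2 rose and 4 fell from 2 to 5 d, with 1 and 3 in the set without and 2 and 5 in the set with Y-linked transcripts. Gfap, the main intermediate filament protein of astrocytes, stood at 13290, 19830, 17120, 15480 and 16320 CPM at 2 d and 19470, 17750, 15740 and 24550 CPM at 5 d, and the groups overlapped (log2 fold change 0.24 ± 0.11 (SE), FDR = 0.069). Aldh1l1, the gene that drives the Cre, stood at 382, 373, 335, 374 and 352 CPM at 2 d and 268, 228, 233 and 299 CPM at 5 d. All 5 d values lay below all 2 d values (log2 fold change -0.50 ± 0.10 (SE), FDR = 1.0e-04). In libraries made from whole tissue, fewer cells of a type and less RNA per cell cannot be told apart.

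Markers of other cells moved with time. The 16 pan-myeloid markers, among them Ptprc, Csf1r, Tyrobp, Lyz2 and C1qa, summed to 2282 to 4215 CPM at 2 d and 18690 to 23700 CPM at 5 d. Uninjured libraries held 74.7 to 135 CPM. Of the 16, 13 rose and none fell, against 21.8% of all genes tested called higher and 19.6% called lower. In the flow-through libraries the sum was 13210 to 17480 CPM at 2 d and 10190 to 12830 CPM at 5 d, so that it lay below that of the astrocyte libraries at 5 d and above it at 2 d. Lyz2 made up most of the 5 d sum in the astrocyte libraries, so this order of sums does not hold for each marker. C1qa, for example, was higher in the flow-through at both times. Microglia markers summed to 412 to 489.6 CPM at 2 d and 990.0 to 1069 CPM at 5 d, where 7 of 9 rose and 1 fell. For monocyte-derived macrophage markers the sums were 1875 to 4008 CPM and 8059 to 9428 CPM, with 5 of 13 higher and 3 lower. Gpnmb, which belongs to these markers, made up most of the 5 d sum, so the sum does not show a rise across the list. Neutrophil markers summed to 437 to 1190 CPM at 2 d and 122 to 306 CPM at 5 d, and 4 of 13 fell. Among neuron markers 7 of 12 fell, with sums of 369.9 to 549 CPM and 273 to 329.8 CPM. Snap25, a synaptic vesicle fusion protein, fell from 48.8 to 13.8 CPM. In each sex-matched set 2 neuron markers fell. The sets without and with Y-linked transcripts had 13 and 12 pan-myeloid markers higher and 2 and 3 neutrophil markers lower. They had 5 and 3 macrophage markers higher and 2 and 2 lower, and the median log2 fold change of that list, 0.33 over all libraries, was 1.05 without and -0.06 with Y-linked transcripts. Of ependyma markers 4 of 8 rose and none fell, with sums of 51.4 to 71.2 CPM and 107 to 136 CPM. Of pericyte and stroma markers 4 of 10 rose and none fell, with sums of 503 to 761 CPM and 1012 to 1148 CPM. Oligodendrocyte progenitor markers had 4 of 8 higher and 1 lower, but their sum was lower at 5 d (559.1 to 672.3 CPM) than at 2 d (696.1 to 863.6 CPM). Oligodendrocyte markers had none of 11 higher and 1 lower. Endothelial markers had 1 of 8 higher and 1 lower, and Schwann cell markers none of 8 higher and 1 lower. Among markers of T and NK cells 3 of 10 rose, among those of B cells 1 of 8, and of 6 erythrocyte markers none was called. No marker of any of these lists was at 0 in all 9 libraries. The part of these cells in the results below was not tested.

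**Figure D1:**
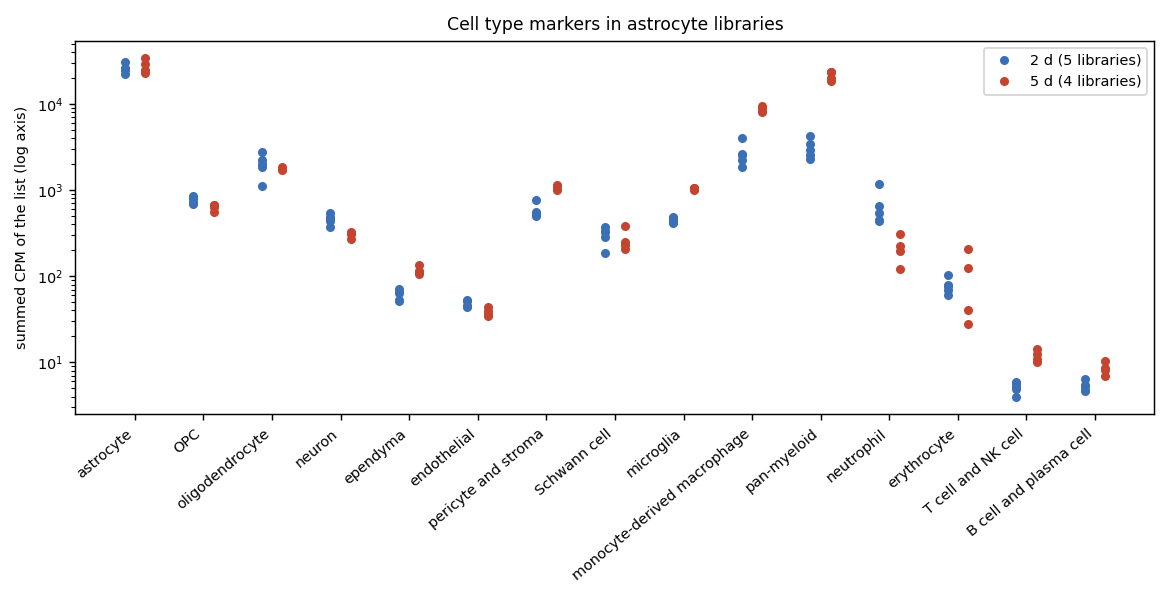
Summed CPM of each cell type marker list (log axis) in the astrocyte libraries of 2 d (blue, 5 libraries) and 5 d (red, 4 libraries), 1 point per library. The pan-myeloid sums of 5 d, 18690 to 23700 CPM, lie above all those of 2 d, and the astrocyte marker sums overlap.

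From 2 to 5 d, 3970 genes rose and 3575 fell among 18205 tested (edgeR quasi-likelihood test, Benjamini-Hochberg FDR under 0.01), which is 21.8% higher and 19.6% lower. Of these 7545 genes, 7096 had 2 d and 5 d libraries that did not overlap, and over all genes tested the libraries did not overlap for 47.5%. Changes of 2-fold or more were mostly increases, with 2065 genes called higher (11.3%) and 759 called lower (4.17%). The median log2 fold change over all genes was 0.02. Means are given ± SD over 5 libraries at 2 d and 4 at every other time, and a pair of levels without further label gives the means at 2 d and 5 d. With library totals in place of TMM scaling that median was −0.10, and the calls were 3205 higher and 4407 lower. Without the 3 libraries with Y-linked transcripts 2890 genes rose and 2709 fell, and the libraries that all held them gave 3290 and 2779. All 7543 called genes that were tested again kept their direction in the set without Y-linked transcripts, and 2 turned in the set with them. Of the genes named here, 14 were no longer called in the set without Y-linked transcripts (Cxcl2, Ppbp, Mt2, Dusp1, Atf3, Ifit3, Cd74, Aqp4, Kcnj10, S100a6, Ndrg1, Col10a1, Aspn and Fstl3, FDR 0.012 to 0.14) and 9 in the set with them (Mt2, Atf3, Tnfaip3, Ccl3, Cxcl12, Rplp0, S100a6, Col10a1 and Fstl3, FDR 0.011 to 0.18). Where a count in the gene lists that follow differed by more than 1.5 times between these sets and all libraries, the counts of both sets stand beside it.

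Among genes of at least 10 CPM the largest fold increase was that of Marco, a scavenger receptor of macrophages, which stood at 0.365, 0.217, 0, 0.196 and 0.477 CPM at 2 d and 61.3, 26.4, 60.3 and 46.5 CPM at 5 d. No library overlapped, and the rise was 190.5-fold (log2 fold change 7.57 ± 0.63 (SE), FDR = 2.7e-10). It was 0.149 ± 0.0904 CPM in uninjured mice and 0.305 ± 0.203 CPM at 14 d, both far below the level at 5 d. Gpnmb, a lysosomal membrane glycoprotein, stood at 311, 252, 315, 151 and 109.5 CPM at 2 d and 7373, 6954, 5910 and 6002 CPM at 5 d, a 28.8-fold rise (log2 fold change 4.85 ± 0.39 (SE), FDR = 2.4e-10) with no overlap. Unlike Marco it stayed high, at 5351 ± 1739 CPM at 14 d. Cd5l, a secreted macrophage protein, rose from 0.343 to 11.9 CPM, Mcoln3, a lysosomal cation channel, from 0.352 to 11.2 CPM, and Hpse, the heparan sulfate-cleaving heparanase, from 3.6 to 93.5 CPM. Lyz1, a lysozyme nearly identical to Lyz2, rose from 1.49 to 41.3 CPM, with the split of reads between both copies uncertain. Other leading genes were Ucma (0.459 to 18.1 CPM), a secreted cartilage matrix protein, Serpinf2 (0.373 to 13.9 CPM), the plasmin inhibitor, the imprinted long noncoding RNA H19 (7.05 to 171 CPM) and Ecrg4 (1.26 to 28 CPM), which encodes a secreted peptide precursor. Ucma had stood at 18 ± 0.912 CPM in uninjured mice, near its 5 d level.

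The largest fold decrease was that of Cxcl3, a neutrophil chemokine and ligand of Cxcr2, which stood at 129, 26.1, 59.5, 52 and 131 CPM at 2 d and 0.3, 1.37, 0.954 and 1.44 CPM at 5 d. Every 2 d library was above every 5 d library, and the 5 d level was 78.2-fold lower (log2 fold change -6.29 ± 0.83 (SE), FDR = 1.5e-06). Cxcl2, a second ligand of Cxcr2, fell from 18 to 0.971 CPM, with 2 d replicate 5 at 65.02 CPM and the other four at 13.77 CPM or less. Ppbp, a platelet chemokine, fell from 19.7 to 1.96 CPM (FDR = 0.0039), but its call was lost without 5 d replicate 1 (FDR = 0.015), 3 (FDR = 0.015) or 4 (FDR = 0.015). The neutrophil marker sum fell over the same step, as given above, and its part in these chemokine values was not tested. Cxcr2, the receptor, fell from 34.5 to 4.31 CPM, and it is also a marker of neutrophils. Ccl24, an eosinophil chemokine, fell from 22.6 to 2.1 CPM, and Il11, a cytokine of the gp130 family, from 26.4 to 3.17 CPM. Slc10a6, a carrier of sulfated steroids, fell from 11.1 to 0.398 CPM, Arl4d, a small GTPase, from 77.9 to 6.15 CPM and Upp1, which splits uridine, from 32.7 to 3.8 CPM. Msmo1, an enzyme of cholesterol synthesis, completed the 10, with 379 ± 62.6 CPM at 2 d and 44.5 ± 1.64 CPM at 5 d.

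**Figure D2:**
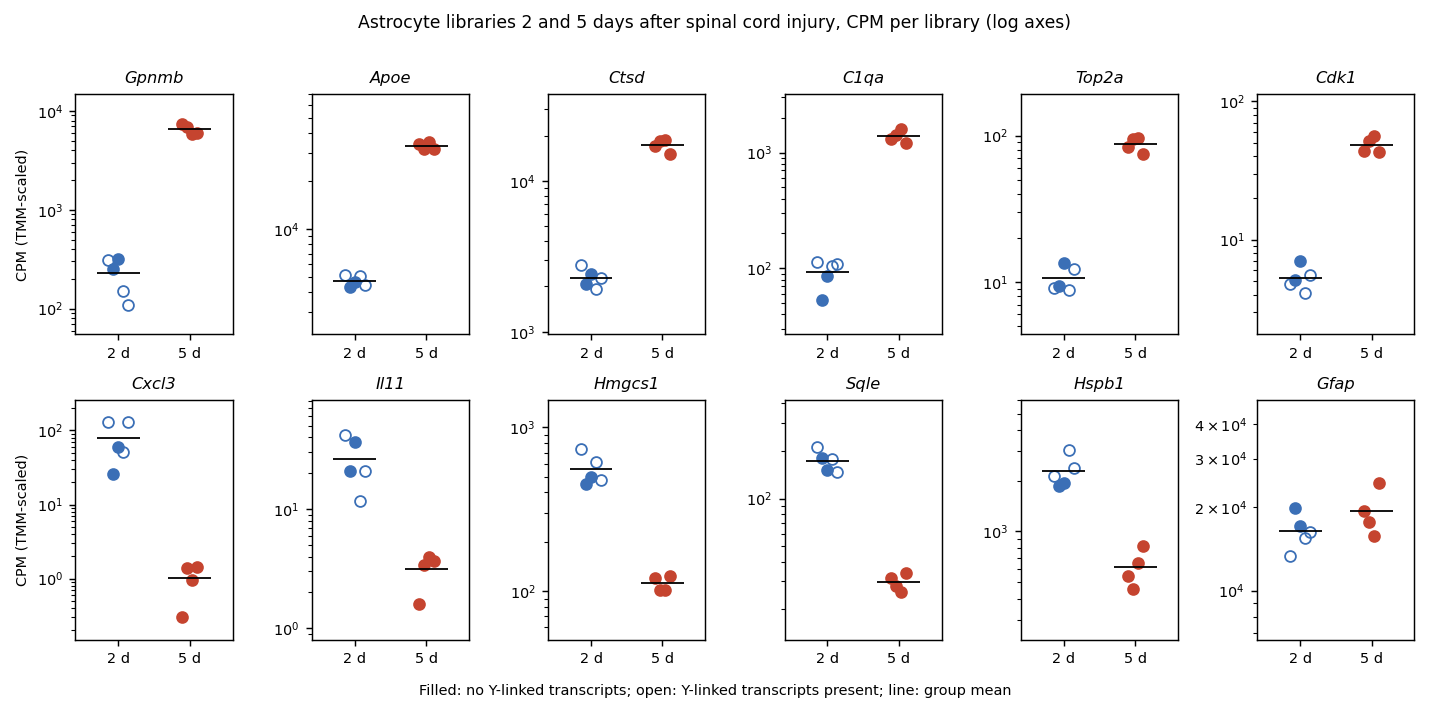
CPM of 12 genes in each astrocyte library (log axes), 2 d in blue and 5 d in red, with a line at the group mean. Open points are the 3 libraries of 2 d with Y-linked transcripts, and of the 12 genes Gfap is the one whose groups overlap.

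Counted in reads rather than in folds, a few abundant transcripts carried much of the rise. The 10 genes that gained most CPM took 47.8% of all CPM gained by called genes, whereas the 10 that lost most took 10.5% of all CPM lost. Apoe, the main lipid carrier of the central nervous system, stood at 5110, 4357, 4619, 5078 and 4476 CPM at 2 d and 33940, 32010, 35040 and 31750 CPM at 5 d (log2 fold change 2.81 ± 0.14 (SE), FDR = 1.5e-15). The groups were far apart, and in uninjured mice Apoe stood between them, at 17310 ± 1726 CPM. Spp1, the secreted phosphoprotein osteopontin, rose from 3675 to 22300 CPM, and was 905 ± 201 CPM at 14 d. The others were Lyz2 (1222 to 12480 CPM), the lysosomal proteins Ctsd, Psap (3350 to 13610 CPM), Ctsb (2939 to 11880 CPM), Gpnmb, Ctss (639 to 3062 CPM) and Grn (437 to 2094 CPM), and Ckb, the brain creatine kinase (2528 to 4175 CPM). Lyz2 and Ctss are also pan-myeloid markers and Gpnmb is a macrophage marker in the lists above. The part of myeloid RNA in these gains was not tested. Among the genes that lost most were the chaperone Clu (4979 to 2521 CPM), the small heat shock proteins Hspb1 and Cryab (2154 to 617 CPM), the peptide-processing enzyme Cpe (2726 to 1682 CPM), and the elongation factor Eef1a1 (2729 to 1756 CPM). The syndecan Sdc4 (1890 to 932 CPM) lost reads as well, as did glutamine synthetase Glul (1730 to 795 CPM), the synapse-related Sparcl1 (2179 to 1269 CPM) and metallothionein Mt2 (3111 to 2323 CPM). The call of Mt2 (FDR = 0.0092) was lost in 7 of the 9 fits that left out 1 library, with an FDR of up to 0.045. With library totals alone the same 10 genes led the gains and the same 10 the losses.

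Genes of cell division rose together. Of the mitosis, spindle and cytokinesis list 50 of 52 rose and none fell, with a median log2 fold change of 2.60, against 21.8% of all genes. The same list had 45 higher without the libraries with Y-linked transcripts and 50 among those with them. Top2a, the topoisomerase that untangles chromosomes, stood at 9.11, 9.44, 13.4, 8.77 and 12.3 CPM at 2 d and 82.9, 95.3, 95.6 and 75 CPM at 5 d, with no overlap (log2 fold change 3.04 ± 0.34 (SE), FDR = 4.3e-08). Cdk1, the kinase that drives entry into mitosis, stood at 4.76, 5.12, 7.01, 4.13 and 5.56 CPM at 2 d and 43.5, 51.4, 56.1 and 42.8 CPM at 5 d, a 9.12-fold rise (FDR = 2.5e-08). Mki67, the proliferation antigen, rose from 7.9 to 43.5 CPM, the mitotic kinases Plk1 from 3.48 to 36.4 CPM and Pbk from 3.04 to 54.1 CPM. Of cyclins, CDKs and E2Fs 13 of 21 rose and 2 fell (median log2 fold change 1.58). Cyclins of S phase and mitosis rose, Ccna2 from 6.09 to 39.2 CPM and Ccnb1 from 1.62 to 18.2 CPM, as did the mitotic transcription factor Foxm1 (3.64 to 31.5 CPM). Among D cyclins, which act in G1, Ccnd2 fell from 321 to 136 CPM. Ccnd1 stood at 444 ± 79.1 CPM at 2 d and 333 ± 19.6 CPM at 5 d and was not called (FDR = 0.096). Of the genes of replication licensing and DNA synthesis 21 of 36 rose and none fell (median log2 fold change 0.57). Its largest rises were in nucleotide supply, Tk1 from 3.08 to 24.3 CPM and Rrm2 from 14 to 77.8 CPM. The sliding clamp Pcna (126 ± 8.95 CPM at 2 d and 133 ± 7.71 CPM at 5 d, FDR = 0.4) and the licensing factor Mcm2 (log2 fold change 0.18 ± 0.16, FDR = 0.35) were not called. Of CDK inhibitors and p53 targets 7 of 21 rose and 3 fell (median log2 fold change 0.23). Cdkn2c, an inhibitor of Cdk4 and Cdk6, was higher (2.88 to 19.9 CPM) and Cdkn1a, which encodes p21, and Gadd45b were lower (231 to 127 CPM and 102 to 36.7 CPM). At 14 d Top2a was 8.31 ± 1.52 CPM and Cdk1 6.76 ± 1.35 CPM, back near their 2 d levels. For cyclins, CDKs and E2Fs the set without Y-linked transcripts gave 9 higher and 2 lower, and the set with them 12 and 1. For replication licensing and DNA synthesis the set without Y-linked transcripts gave 10 higher and 1 lower, and the set with them 21 and none.

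The promoters of the mitosis genes are shown because these genes moved together. Promoters of late cell cycle genes are known to hold the cell cycle genes homology region (CHR, TTTGAA or TTCGAA) and CCAAT boxes, which are bound by the MuvB and NF-Y complexes. In RefSeq windows of GRCm38.p6 from 250 bases before to 50 after the start, a CHR on either strand was found for 36 of 45 list genes with a window (80.0%), against 17% of 13590 genes tested with a window, and CCAAT for 73.3% against 42.3%. The 250 bases before the start are printed for the list genes with a CHR there and the largest rises. These were Ckap2, a spindle protein (3.86 to 55 CPM), and Ube2c, a ubiquitin-conjugating enzyme of mitotic exit (5.24 to 66.5 CPM). Capitals mark CHR and CCAAT matches on either strand.
Ckap2 (chr8:22185820-22186069, minus strand): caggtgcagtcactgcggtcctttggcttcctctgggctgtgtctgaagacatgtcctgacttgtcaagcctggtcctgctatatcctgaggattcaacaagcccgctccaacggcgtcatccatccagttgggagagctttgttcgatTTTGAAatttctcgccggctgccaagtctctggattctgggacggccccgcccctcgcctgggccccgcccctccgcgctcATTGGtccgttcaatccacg
Ube2c (chr2:164769679-164769928, plus strand): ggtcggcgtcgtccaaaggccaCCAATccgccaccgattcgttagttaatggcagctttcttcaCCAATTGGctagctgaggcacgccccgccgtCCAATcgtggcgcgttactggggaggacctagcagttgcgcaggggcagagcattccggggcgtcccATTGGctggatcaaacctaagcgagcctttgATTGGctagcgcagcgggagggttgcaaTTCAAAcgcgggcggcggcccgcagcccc
A match is a run of letters, and binding was not measured.

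Genes of cholesterol synthesis fell. Of 24 genes of the list that were tested, 23 fell and none rose, with a median log2 fold change of -1.96 and 20 of them lower by 2-fold or more, against 19.6% of all genes called lower. All 23 fell in both sex-matched sets. Hmgcs1, the synthase that feeds the pathway, stood at 739, 451, 498, 613 and 476 CPM at 2 d and 119, 101, 102 and 124 CPM at 5 d (log2 fold change -2.32 ± 0.15 (SE), FDR = 4.1e-13). Sqle, the squalene epoxidase, stood at 212, 181, 151, 178 and 148 CPM at 2 d and 31.3, 27.9, 25.6 and 33.8 CPM at 5 d, which is 5.87-fold lower at 5 d (FDR = 2.4e-17). Neither gene had overlapping libraries. Idi1, an isomerase of the pathway, fell from 28.7 to 3.59 CPM. Insig1, which retains the sterol-regulated transcription factor SREBP2 in the endoplasmic reticulum and is itself a target of it, fell from 135 to 27 CPM. In uninjured mice Hmgcs1 stood at 739.8 ± 106 CPM and Sqle at 155 ± 12.9 CPM, above the 5 d level in both cases. At 14 d Hmgcs1 was 114 ± 15.5 CPM and Sqle 27.4 ± 1.73 CPM. Targets of SREBP2 are known to carry a sterol regulatory element. The letters TCACNCCAC were found on either strand for 1 of 17 list genes with a window, against 1.47% of all genes, and that gene was Hmgcs1, whose 250 bases before the start are shown with the match in capitals.
Hmgcs1 (chr13:119690101-119690350, plus strand): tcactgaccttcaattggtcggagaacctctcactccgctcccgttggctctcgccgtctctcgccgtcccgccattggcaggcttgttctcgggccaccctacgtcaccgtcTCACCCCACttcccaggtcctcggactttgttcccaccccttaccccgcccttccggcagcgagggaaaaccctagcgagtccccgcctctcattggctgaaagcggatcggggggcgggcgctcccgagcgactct

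Lipid efflux and storage moved the opposite way. Of the list of apolipoproteins, lipid efflux and lipid droplets 21 of 28 rose and 1 fell (median log2 fold change 1.70). The shares of all genes were 21.8% higher and 19.6% lower. In the sex-matched sets 20 rose and 1 fell without the 3 libraries with Y-linked transcripts, and 21 rose and 1 fell among libraries that all held them. Abca1, which exports cholesterol to apolipoproteins, stood at 78.3, 51.8, 57.7, 56.6 and 68.2 CPM at 2 d and 318, 276, 204 and 242 CPM at 5 d (log2 fold change 2.06 ± 0.18 (SE), FDR = 2.1e-10), with no overlap. Abcg1, a second sterol exporter, rose from 20.5 to 148 CPM, Lpl, the lipoprotein lipase, from 13.8 to 85.5 CPM, Plin2, which coats lipid droplets, from 324 to 959.9 CPM and the fatty acid carrier Fabp5 from 71.5 to 285 CPM. The largest fold change of the list was in Apoc4, at low levels (0.0926 to 3.95 CPM). The pan-myeloid marker sum rose over the same step, and its part in these values was not tested. 

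Lysosomal genes rose. Of 54 enzymes and membrane proteins 47 rose and 1 fell, with a median log2 fold change of 1.28, against 21.8% of all genes higher and 19.6% lower. In the sex-matched sets 40 rose and 1 fell without the 3 libraries with Y-linked transcripts, and 42 rose and 1 fell among libraries that all held them. Ctsd, the lysosomal aspartic protease, stood at 2757, 2079, 2399, 1918 and 2265 CPM at 2 d and 17090, 18350, 18830 and 15200 CPM at 5 d (log2 fold change 2.93 ± 0.21 (SE), FDR = 9.4e-12). Lamp1, a major membrane protein of the lysosome, rose by a log2 fold change of 0.80 ± 0.05. Genes of lysosome biogenesis are known to hold the CLEAR element bound by TFEB. Its palindrome TCACGTGA was found for 6 of 44 list genes with a window (13.6%), against 1.81% of all genes, and that of Ctsd, the one with the largest rise, is shown in capitals.
Ctsd (chr7:142387828-142388077, minus strand): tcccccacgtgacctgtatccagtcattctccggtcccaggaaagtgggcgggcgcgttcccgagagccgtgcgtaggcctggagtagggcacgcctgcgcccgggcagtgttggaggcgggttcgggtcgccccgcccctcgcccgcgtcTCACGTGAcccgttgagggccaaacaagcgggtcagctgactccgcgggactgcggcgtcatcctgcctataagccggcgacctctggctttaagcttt

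Complement and antigen presentation rose with them, read against 21.8% of all genes called higher and 19.6% called lower. Of complement components and regulators 16 of 28 rose and 1 fell (median log2 fold change 0.94). Of MHC class II presentation 13 of 15 rose and none fell (median log2 fold change 1.54). C1qa, a chain of the first complement component and one of the pan-myeloid markers, stood at 113, 53.6, 86.4, 105 and 109 CPM at 2 d and 1298, 1408, 1592 and 1213 CPM at 5 d, a 14.7-fold rise (log2 fold change 3.88 ± 0.28 (SE), FDR = 2.5e-11). C1qc rose from 61.6 to 1211 CPM. C3, the central component, rose from 102 to 288 CPM but had stood at 523 ± 87.2 CPM in uninjured mice. In class II, H2-Ab1 rose from 72 to 211 CPM and the invariant chain Cd74 from 158 to 458 CPM, where the call of Cd74 was lost with the 2 remaining 2 d libraries (FDR = 0.018). Of MHC class I presentation 10 of 22 rose and 1 fell (median log2 fold change 0.34). B2m, the common light chain, stood at 459.9 ± 75.3 CPM at 2 d and 1124 ± 122 CPM at 5 d (log2 fold change 1.29 ± 0.20 (SE), FDR = 3.6e-06). H2-K1 rose from 278 to 533 CPM, reads of which may be shared with near-identical class I genes. Of Toll-like receptors and inflammasome genes 12 of 25 rose and none fell (median log2 fold change 0.87), for example Tlr2 (31.6 to 63.8 CPM). All these lists moved in the same direction as the pan-myeloid sum, which was 2282 to 4215 CPM at 2 d and 18690 to 23700 CPM at 5 d, and the part of myeloid RNA in them was not tested. The pan-myeloid markers share Ctss with class II, C1qa and Itgam with complement and Cd14 with the Toll-like list. Their sum is therefore not independent of those lists. For complement components and regulators the set without Y-linked transcripts gave 10 higher and 1 lower, and the set with them 13 and 1. For Toll-like receptors and inflammasome the set without Y-linked transcripts gave 9 higher and none lower, and the set with them 8 and 1.

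**Figure D3:**
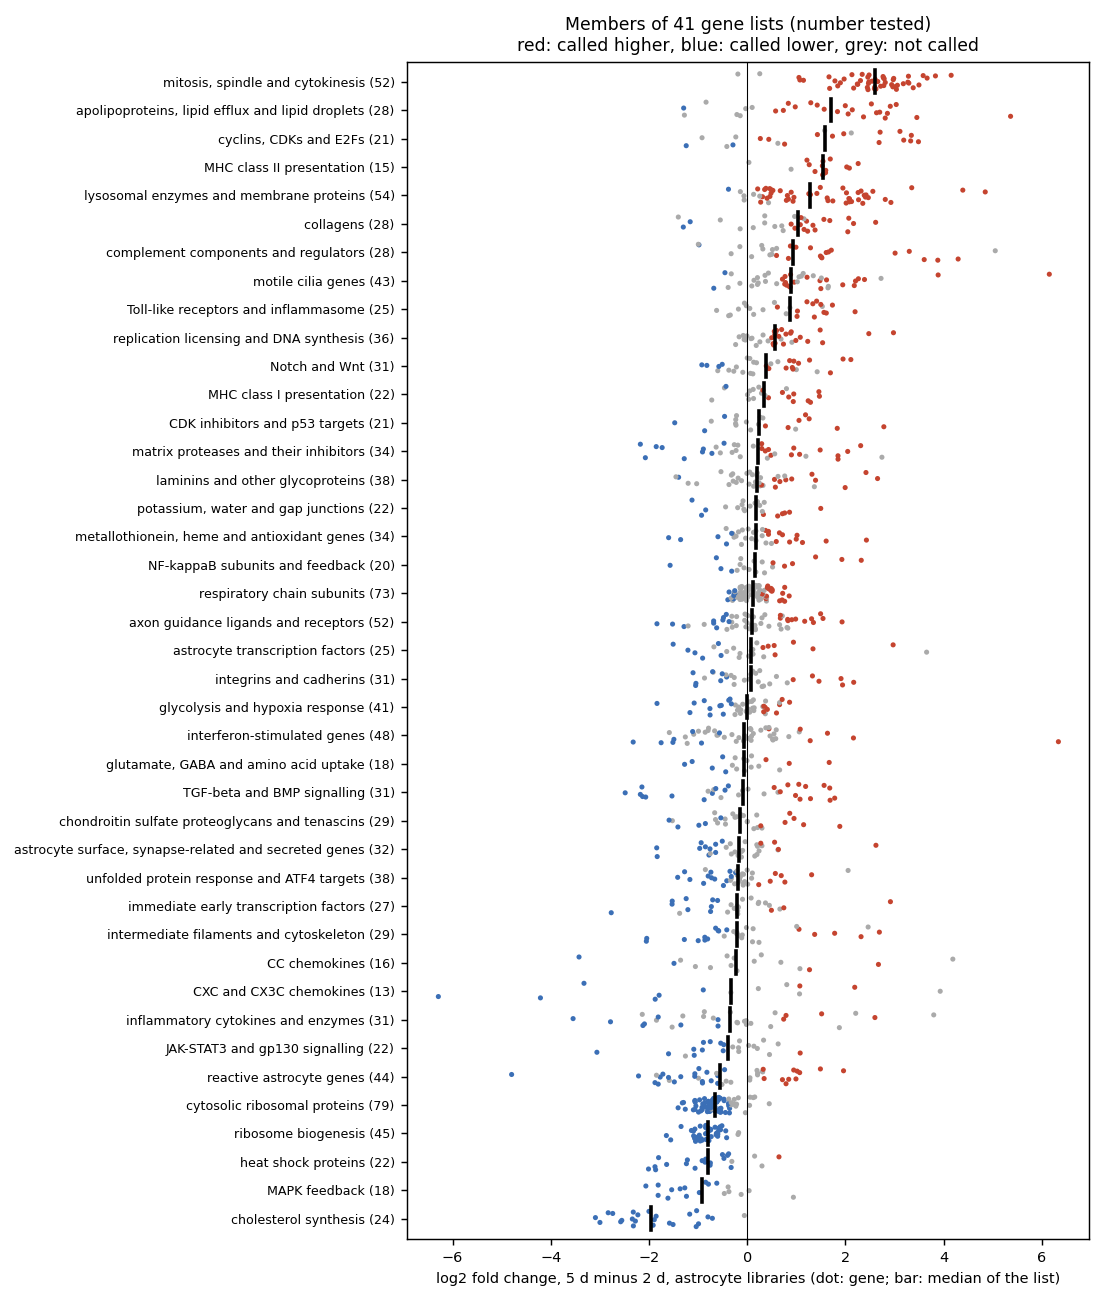
Log2 fold change from 2 to 5 d of each tested member of 41 gene lists (1 dot per gene, red called higher, blue called lower, grey not called), with the list median as a black bar and lists ordered by it. Mitosis genes lie at the top with a median of 2.60 and cholesterol synthesis at the bottom with -1.96.

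Genes of acute signalling fell more often than they rose, whereas over all genes 19.6% were called lower and 21.8% higher. Of 18 genes of MAPK feedback, the phosphatases and Sprouty proteins that MAPK activity itself induces, none rose and 12 fell (median log2 fold change -0.91). Spred3 fell from 45.5 to 10.9 CPM, Spry4 from 29.6 to 11.5 CPM and Dusp1 from 54.6 to 17.9 CPM. Dusp6, a phosphatase of ERK, stood at 96.6 ± 8.07 CPM at 2 d and 88.7 ± 11.4 CPM at 5 d and was not called (FDR = 0.47). Without the libraries with Y-linked transcripts the call of Dusp1 was lost (FDR = 0.033). Of JAK-STAT3 and gp130 signalling 1 of 22 rose and 10 fell (median log2 fold change -0.39). Socs3, the feedback inhibitor of STAT3, stood at 78, 78.6, 74.8, 52.6 and 68 CPM at 2 d and 28.6, 43.9, 42.9 and 36.5 CPM at 5 d, with no overlap (log2 fold change -0.89 ± 0.17 (SE), FDR = 5.7e-05). The receptor subunits Osmr and Il6st fell by 0.91 and 1.09 on the log2 scale and Stat3 by 0.48, and in uninjured mice Socs3 had been 1.98 ± 0.507 CPM. Of immediate early transcription factors 3 of 27 rose and 9 fell (median log2 fold change -0.20). Klf6 fell from 308 to 107 CPM, Egr1 from 71.8 to 31.1 CPM, Jun from 286 to 171 CPM, Myc from 30.5 to 18.7 CPM and Fosl1 from 18 to 2.65 CPM. Atf3, which is induced by injury, rose from 34.5 to 57.8 CPM. Fos stood at 59.6 ± 7.26 CPM at 2 d and 52.2 ± 5 CPM at 5 d and was not called (FDR = 0.45). For JAK-STAT3 and gp130 signalling the set without Y-linked transcripts gave none higher and 9 lower, and the set with them 1 and 8. For immediate early transcription factors the set without Y-linked transcripts gave 2 higher and 8 lower, and the set with them 1 and 9.

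Lists of inflammatory mediators held calls in both directions, and several had shares at or below those of all genes (21.8% higher and 19.6% lower). Of NF-κB subunits and feedback genes 6 of 20 rose and 4 fell (median log2 fold change 0.16). The adhesion molecule Icam1 rose from 12.7 to 48.2 CPM, the signalling adaptor Traf1 from 2.4 to 12 CPM and the inhibitor Tnfaip3 from 11.4 to 21.6 CPM, while the NF-κB cofactor Nfkbiz fell from 26.1 to 8.77 CPM. Of CC chemokines 2 of 16 rose and 2 fell (median log2 fold change -0.24). The monocyte chemokine Ccl2 stood at 71.6 ± 16.1 CPM at 2 d and 62.1 ± 10.4 CPM at 5 d and was not called (FDR = 0.64). Ccl3, a chemokine of macrophages, rose from 6.46 to 15.6 CPM. Of CXC and CX3C chemokines 2 of 13 rose and 6 fell (median log2 fold change -0.33), with Cxcl12 lower (43.2 to 23.2 CPM) and Cxcl16 higher (17.9 to 81.7 CPM). Of inflammatory cytokines and enzymes 4 of 31 rose and 8 fell (median log2 fold change -0.34). The alarmin Il33 fell from 421 to 98.7 CPM and the siderophore-binding Lcn2 from 146 to 41.5 CPM. Il1b, a cytokine of myeloid cells, was not called (19.3 ± 22.2 CPM at 2 d and 6.69 ± 2.79 CPM at 5 d, FDR = 0.048). Arg1, the arginase of alternatively activated macrophages, was not called either (1149 ± 409 CPM at 2 d and 712 ± 243 CPM at 5 d, FDR = 0.074). Of interferon-stimulated genes 6 of 48 rose and 7 fell (median log2 fold change -0.06). Ifit3 fell from 67.3 to 19.96 CPM. Irf7, a transcription factor of the interferon response, stood at 11.1 ± 4.23 CPM at 2 d and 11.2 ± 1.55 CPM at 5 d (FDR = 0.98). For NF-κB subunits and feedback the set without Y-linked transcripts gave 5 higher and 2 lower, and the set with them 4 and 3. For CC chemokines the set without Y-linked transcripts gave 2 higher and 1 lower, and the set with them 1 and 3. For CXC and CX3C chemokines the set without Y-linked transcripts gave 2 higher and 3 lower, and the set with them 3 and 5, and the median, of changed sign in at least 1 set, was 0.26 and 0.08. For interferon-stimulated genes the set without Y-linked transcripts gave 4 higher and 2 lower, and the set with them 2 and 5, and the median, of changed sign in at least 1 set, was 0.13 and -0.23.

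TGF-β and BMP signalling genes moved in both directions: 12 of 31 rose and 11 fell (median log2 fold change -0.10), and with library totals alone 11 rose and 12 fell. Among all genes tested 21.8% were called higher and 19.6% lower. The ligand Tgfb1 rose from 50.2 to 162 CPM and the receptor Tgfbr2 from 25.6 to 88.1 CPM. On the BMP side the ligand Bmp2 fell from 9.63 to 1.72 CPM and the target Id3 rose from 91 to 292 CPM. Of Notch and Wnt genes 12 of 31 rose and 4 fell (median log2 fold change 0.39), with Sfrp5, a secreted Wnt antagonist, higher (9.42 to 40.7 CPM) and the ligand Wnt7b lower (222 to 117 CPM). For Notch and Wnt the set without Y-linked transcripts gave 7 higher and 4 lower, and the set with them 12 and 4.

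Heat shock and translation genes fell, read against 19.6% of all genes called lower and 21.8% called higher. Of heat shock proteins 1 of 22 rose and 18 fell (median log2 fold change -0.80), and in the sex-matched sets 16 and 17 fell. Hspb1, a small heat shock protein, stood at 2138, 1871, 1934, 3027 and 2374 CPM at 2 d and 542, 456, 647 and 823 CPM at 5 d (log2 fold change -1.88 ± 0.19 (SE), FDR = 3.5e-09), with no overlap. It was 36.2 ± 4.13 CPM in uninjured mice. Heat shock elements, here 3 inverted NGAAN units in a row on either strand, were found for 4 of 17 list genes with a window, against 0.559% of all genes. They are the sites of heat shock factors, and the mitochondrial chaperone Hspd1 (373 to 160.3 CPM) is shown with its 2 overlapping matches in capitals. 
Hspd1 (chr1:55087933-55088182, minus strand): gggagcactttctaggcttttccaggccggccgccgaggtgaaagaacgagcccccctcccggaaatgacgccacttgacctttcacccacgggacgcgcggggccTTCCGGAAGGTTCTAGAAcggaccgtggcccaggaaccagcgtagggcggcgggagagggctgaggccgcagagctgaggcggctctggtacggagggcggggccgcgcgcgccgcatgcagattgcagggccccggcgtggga
Of the unfolded protein response and ATF4 targets 6 of 38 rose and 13 fell (median log2 fold change -0.19), and Atf4 itself fell from 219.9 to 97.9 CPM. Of 45 genes of ribosome biogenesis none rose and 43 fell (median log2 fold change -0.80), and of 79 cytosolic ribosomal proteins none rose and 64 fell (median -0.66). For ribosomal proteins 50 and 38 fell in the sex-matched sets. Ncl, the nucleolar protein nucleolin, stood at 761, 667, 699.8, 700.5 and 676 CPM at 2 d and 346, 326, 348 and 331 CPM at 5 d (log2 fold change -1.05 ± 0.06 (SE), FDR = 1.1e-13). Rrp12 and Ddx21, both factors of ribosomal RNA processing, fell from 44.5 to 14.2 CPM and 87.5 to 41.8 CPM. Among ribosomal proteins Rps6 fell from 333 to 136 CPM, Rpl22l1 from 106 to 40.01 CPM and Rplp0 from 439 to 342 CPM, where processed pseudogenes may share reads, and Rpl22, the tagged protein of the RiboTag allele, fell from 192.8 to 115 CPM. At 14 d Ncl was 227 ± 11.2 CPM, near its uninjured 232 ± 6.35 CPM. Of ribosome biogenesis genes with a window, 8 of 39 held the E-box CACGTG, against 10.7% of all genes. For unfolded protein response and ATF4 targets the set without Y-linked transcripts gave 5 higher and 7 lower, and the set with them 5 and 10.

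Lists of metabolism and iron handling are read against the 21.8% of all genes that rose and the 19.6% that fell. The shares were 19.5% higher and 29.3% lower for glycolysis and hypoxia, 23.3% higher and 9.59% lower for the respiratory chain and 35.3% higher and 14.7% lower for antioxidant genes. Of glycolysis and hypoxia genes 8 of 41 rose and 12 fell (median log2 fold change 0.004), with the peptide hormone Adm lower (20.1 to 5.64 CPM) and Ndrg1 higher (68.5 to 125 CPM). Of respiratory chain subunits 17 of 73 rose and 7 fell (median log2 fold change 0.13). With library totals alone 12 rose and 15 fell, so that the balance of directions rested on the scaling. Of metallothionein, heme and antioxidant genes 12 of 34 rose and 5 fell (median log2 fold change 0.18). The ferritin light chain Ftl1 rose from 610.1 to 1860 CPM, and Srxn1, a repair enzyme of peroxiredoxins, fell from 387 to 128 CPM. Hmox1, which breaks down heme, was high at both times, at 2104 ± 648 CPM at 2 d and 2743 ± 590.3 CPM at 5 d, and was not called (FDR = 0.13). Uninjured mice had 14.2 ± 2.32 CPM. For glycolysis and hypoxia response the set without Y-linked transcripts gave 4 higher and 8 lower, and the set with them 6 and 10, and the median, of changed sign in at least 1 set, was 0.03 and -0.09. For respiratory chain subunits the set without Y-linked transcripts gave 13 higher and 2 lower, and the set with them 13 and 4. For metallothionein, heme and antioxidant genes the set without Y-linked transcripts gave 10 higher and 3 lower, and the set with them 10 and 5.

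Lists of mature astrocyte function had medians near 0 and are read against the same shares of all genes (21.8% higher and 19.6% lower). The shares were 16.7% higher and 27.8% lower for uptake, 27.3% higher and 13.6% lower for potassium and water, and 28% higher and 24% lower for transcription factors. For surface, synapse-related and secreted genes they were 12.5% higher and 31.25% lower. Of glutamate, GABA and amino acid uptake 3 of 18 rose and 5 fell (median log2 fold change -0.06). Of potassium, water and gap junction genes 6 of 22 rose and 3 fell (median log2 fold change 0.18). Of astrocyte surface, synapse-related and secreted genes 4 of 32 rose and 10 fell (median log2 fold change -0.17). Glul, glutamine synthetase, stood at 1692, 1697, 1717, 1824 and 1720 CPM at 2 d and 808, 726, 780.4 and 867 CPM at 5 d (log2 fold change -1.12 ± 0.11 (SE), FDR = 1.6e-09), with no overlap. The uninjured level was 4012 ± 552 CPM. Slc1a3, a glutamate transporter, stood at 166 ± 27.3 CPM at 2 d and 159 ± 31.1 CPM at 5 d, against 618 ± 50.7 CPM in uninjured mice (FDR = 0.74). Aldoc, an aldolase of astrocytes, stood at 2146 ± 146 CPM at 2 d and 2152 ± 504 CPM at 5 d, against 11730 ± 1190 CPM (FDR = 0.98). Gja1, the gap junction protein connexin 43, rose from 345 to 627 CPM. Aqp4, the water channel, and Kcnj10, an inward rectifier of potassium, were called higher (954 to 1620 CPM and 868 to 1335 CPM) but had overlapping libraries. Both lost the call without those with Y-linked transcripts (FDR = 0.12 and 0.12). Of astrocyte transcription factors 7 of 25 rose and 6 fell (median log2 fold change 0.08), and with library totals alone 4 rose and 7 fell. Sox9, a factor of astrocyte identity, was lower (268 to 143 CPM). Olig2, which marks the oligodendrocyte lineage and some reactive astrocytes, was also lower (123 to 43.3 CPM). For potassium, water and gap junctions the set without Y-linked transcripts gave 2 higher and 3 lower, and the set with them 4 and 3, and the median, of changed sign in at least 1 set, was -0.01 and 0.17. For astrocyte transcription factors the set without Y-linked transcripts gave 3 higher and 6 lower, and the set with them 4 and 5, and the median, of changed sign in at least 1 set, was -0.04 and 0.02.

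Reactive astrocyte genes were called lower in 43.2% and higher in 25% of the list, against 19.6% and 21.8% of all genes. Of reactive astrocyte genes 11 of 44 rose and 19 fell (median log2 fold change -0.56). Of intermediate filament and cytoskeleton genes 5 of 29 rose and 11 fell (median log2 fold change -0.21). Nes, the filament protein nestin, stood at 1084, 699.5, 724, 799 and 781 CPM at 2 d and 150.3, 188, 196 and 253 CPM at 5 d (log2 fold change -2.05 ± 0.27 (SE), FDR = 7.4e-07). It fell with no overlap, from a level far above the uninjured 12 ± 5.09 CPM. Vim, the filament protein vimentin, stood at 3104 ± 274 CPM at 2 d and 3346 ± 316 CPM at 5 d and was not called (FDR = 0.52). Tubb6, a tubulin of dividing and growing cells, fell from 303.5 to 167 CPM, Cd44, the hyaluronan receptor, from 750.2 to 268 CPM, the protease inhibitor Timp1 from 612 to 326 CPM and S100a6 from 1405 to 796 CPM. Lgals3, a galectin that phagocytes also express, rose from 801 to 1681 CPM, and A2m, a broad protease inhibitor, from 154 to 598 CPM. Serpina3n, a widely used reactive marker, stood at 715 ± 229.6 CPM at 2 d and 501 ± 142 CPM at 5 d and was not called (FDR = 0.078). It stood at 2157 ± 150.5 CPM at 14 d. Of motile cilia genes 20 of 43 rose and 2 fell (median log2 fold change 0.88), and Foxj1, their transcription factor, rose from 25.7 to 72.7 CPM. The ependyma marker sum rose as given above, but Foxj1 belongs to those markers, so that sum is not independent of it. For reactive astrocyte genes the set without Y-linked transcripts gave 4 higher and 16 lower, and the set with them 7 and 16. For motile cilia genes the set without Y-linked transcripts gave 15 higher and 1 lower, and the set with them 14 and none.

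Among matrix genes the collagens mostly rose where they were called. Of collagens 15 of 28 rose and 2 fell (median log2 fold change 1.03), against 21.8% of all genes called higher and 19.6% lower. The fibrillar Col1a1 was higher (108 to 448 CPM), as were the basement membrane chain Col4a1 (28.5 to 74.3 CPM) and Col11a2 (2.41 to 14.8 CPM), a chain of cartilage. The stroma marker sum rose over the same step, from 503 to 761 CPM to 1012 to 1148 CPM, and its part was not tested. Col1a1, Col1a2 and Col3a1 belong to both lists, so that sum is not independent of the collagens. Of chondroitin sulfate proteoglycans and tenascins 6 of 29 rose and 5 fell (median log2 fold change -0.15), and with library totals alone 4 rose and 7 fell. The proteoglycan Vcan and the tenascin Tnc fell from 52.9 to 19.9 CPM and 263 to 133 CPM, and Cspg4 rose from 5.81 to 21.5 CPM. Of laminins and other glycoproteins 11 of 38 rose and 1 fell (median log2 fold change 0.20). Postn, a matricellular protein of fibroblasts, rose from 1.87 to 11.8 CPM. Fibronectin Fn1 stood at 665 ± 177 CPM at 2 d and 546 ± 90.7 CPM at 5 d (FDR = 0.51). Of matrix proteases and their inhibitors 13 of 34 rose and 9 fell (median log2 fold change 0.21). Scaling by library totals alone gave 8 higher and 10 lower, so that the balance of directions rested on the scaling. The urokinase Plau was higher (19.1 to 94.8 CPM), the membrane protease Mmp14 was higher (292 to 409 CPM) and the aggrecanase Adamts1 was lower (237 to 71.5 CPM). Of integrins and cadherins 6 of 31 rose and 7 fell (median log2 fold change 0.07), for example Itga9 (4.42 to 19.9 CPM). Of axon guidance ligands and receptors 12 of 52 rose and 10 fell (median log2 fold change 0.09), for example the semaphorin receptor Plxnb1 (103 to 193.5 CPM). The shares of calls among proteoglycans, integrins and guidance genes lay near those of all genes. For laminins and other glycoproteins the set without Y-linked transcripts gave 4 higher and 1 lower, and the set with them 7 and 1. For matrix proteases and their inhibitors the set without Y-linked transcripts gave 7 higher and 9 lower, and the set with them 8 and 5. For integrins and cadherins the set without Y-linked transcripts gave 4 higher and 8 lower, and the set with them 6 and 4, and the median, of changed sign in at least 1 set, was -0.09 and 0.10. For axon guidance ligands and receptors the set without Y-linked transcripts gave 10 higher and 8 lower, and the set with them 12 and 6, and the median, of changed sign in at least 1 set, was -0.02 and 0.16.

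**Figure D4:**
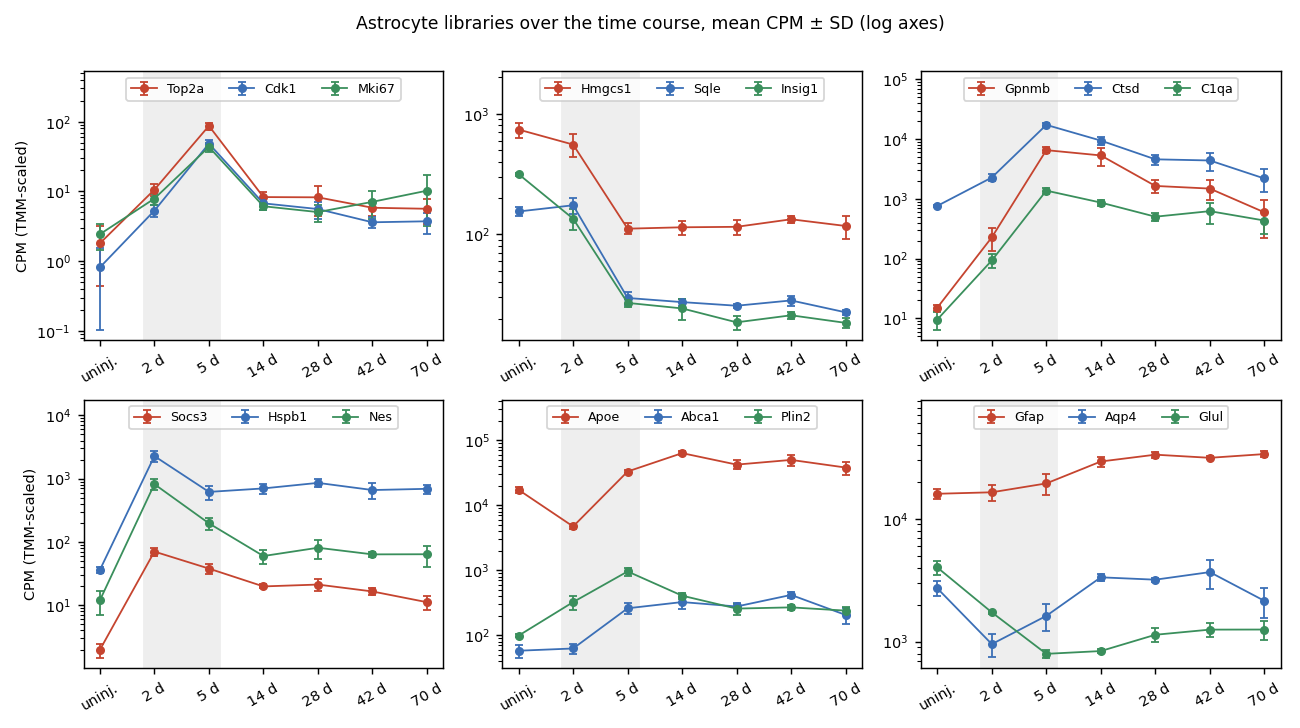
Mean CPM ± SD (log axes) of 18 genes in uninjured mice and at each time from 2 d to 70 d, with the 2 d to 5 d step shaded (n = 5 at 2 d and 4 elsewhere). Top2a, Cdk1 and Mki67 have their highest mean at 5 d, Hmgcs1, Sqle and Insig1 drop within the step and stay low at 14 d, and Gpnmb and C1qa rise within it.

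The flow-through libraries give the same step in the unbound RNA of the tissue, with the limits of their 2 d libraries stated above. There 4495 of 19207 genes rose (23.4%) and 3501 fell (18.2%). Against the male 5 d flow-through libraries 4039 rose and 2942 fell. The difference between the astrocyte and the flow-through step was called for 5930 of 18198 genes (32.6%), 3143 above 0 (17.3%) and 2787 below 0 (15.3%) (interaction in edgeR, FDR under 0.01). From libraries that all held Y-linked transcripts the numbers were 2070 and 1822. Cholesterol synthesis genes went opposite ways: in the flow-through 13 of 25 rose and none fell (median log2 fold change 0.54), and the test of the difference called none of 25 above and 23 below 0. Hmgcs1 in the flow-through stood at 92.3 ± 13.7 CPM at 2 d and 105 ± 13 CPM at 5 d and differed by -2.48 ± 0.21 (log2, SE, FDR = 4.0e-08). Of mitosis genes 10 of 52 rose and 3 fell (median log2 fold change 0.35) in the flow-through, and the difference was called for 44 of 52 above and 1 below 0. Top2a stood there at 59.7 ± 15.7 CPM at 2 d and 86.3 ± 9.66 CPM at 5 d. Of lysosomal genes 9 of 54 rose and 22 fell (median log2 fold change -0.28) in the flow-through, and the difference was called for 38 of 54 above and none below 0. Ctsd stood there at 19600 ± 4110 CPM at 2 d and 15550 ± 1978 CPM at 5 d. The pan-myeloid markers showed the same contrast, where 5 of 16 rose and 7 fell (median log2 fold change -0.25) in the flow-through and the difference was called for 11 of 16 above and none below 0. C1qa stood there at 4867 ± 1203 CPM at 2 d and 2756 ± 410.5 CPM at 5 d. Of MAPK feedback genes 7 of 18 rose and 1 fell (median log2 fold change 0.42) in the flow-through, and the difference was called for 1 of 18 above and 11 below 0. Dusp1 stood there at 5.99 ± 7.08 CPM at 2 d and 24.8 ± 3.89 CPM at 5 d.

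**Figure D5:**
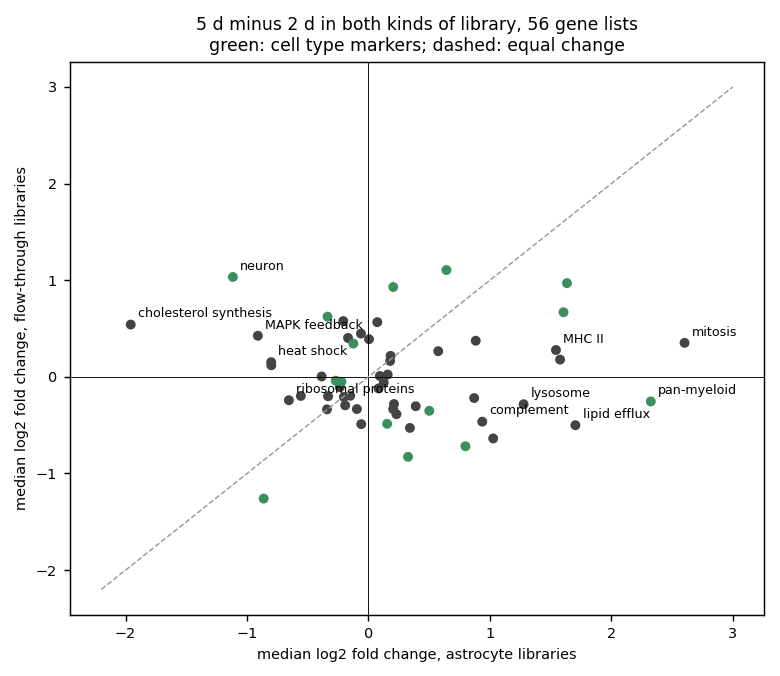
Median log2 fold change from 2 to 5 d of each of 56 gene lists in astrocyte (x axis) and flow-through libraries (y axis), with cell type markers in green and a dashed line of equal change. Cholesterol synthesis lies at -1.96 against 0.54, and pan-myeloid markers at 2.32 against -0.25.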

How the data were processed

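RNA bound to tagged ribosomes and flow-through RNA were sequenced. The authors worked in Galaxy, where HISAT2 placed reads trimmed by Trimmomatic on mm10 and featureCounts assigned them to genes, both with default parameters, and for each library they deposited raw counts of 27179 Entrez genes. By default featureCounts ignores strand, so reads of overlapping and antisense genes cannot be told apart. Symbols came from RefSeq (25275) and GENCODE (18), and 1886 IDs stayed unnamed.

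From these counts, edgeR 4.0.16 in R 4.3.3 (filterByExpr, TMM, robust quasi-likelihood F test) was fitted to 29 astrocyte libraries, and apart from them to 29 flow-through libraries, without covariates; the difference between both steps was an interaction over 18 libraries. Calls used a Benjamini-Hochberg FDR under 0.01. CPM values are TMM-scaled and not corrected for length. A simulation with known changes was used to test the scripts. The smallest chi-square per gene between 2 replicates of a group was 34.1, so replicates differed by more than counting noise. Deviations of astrocyte and flow-through libraries of like number correlated at 0.25 to 0.49 at 5 d and −0.09 to 0.14 at 2 d, where the libraries numbered 2 and 3 also differed in Y-linked transcripts, so that like numbers do not mark 1 mouse throughout.

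The members, the 56 gene lists (1431 genes) and the tests were chosen with earlier results of these data known. Genes named were the anchor genes of each list, the 10 largest and 10 smallest fold changes among called genes with a mean of at least 10 CPM and no overlap, the 10 that gained and lost most CPM, the 5 largest and smallest differences from the flow-through, and the leading member of a list in each direction; Ckap2, Ube2c and Hspd1 were added for their promoters, and the Y-linked genes as a check. Some genes that met these rules are not reported here. Alternatives changed the scaling, test, filter, samples, threshold and replicate block, and left out each library in turn. The sex-matched sets were added after seeing the data. Counting error is small at this depth, and the number of mice limits the precision.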

Additional observations from a re-analysis of the deposited data

Results flagged for a closer look

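Within the groups of 4 or 5 libraries, 1 library stood apart from the others for 18 of the values of named genes, by the gap to its nearest neighbour over the range of the group (Dixon criterion, 95%). Chance marks about 1 in 20 groups in this way, and here it was 5.46%. For 2 d replicate 1 these were Cxcr2 at 72.5 CPM against 31 CPM in the next lower library, Cxcl12 at 28.7 CPM against 45.6 CPM in the next higher library, Ftl1 at 959 CPM against 608 CPM in the next lower library, Idi1 at 39.7 CPM against 28.5 CPM in the next lower library, Abcg1 at 26.4 CPM against 20.04 CPM in the next lower library, Nes at 1084 CPM against 799 CPM in the next lower library and A2m at 95 CPM against 155 CPM in the next higher library. For 2 d replicate 3 these were Postn at 3.13 CPM against 1.87 CPM in the next lower library and Atp6v0d2 at 4.01 CPM against 2.76 CPM in the next lower library. For 2 d replicate 4 this was Glul at 1824 CPM against 1720 CPM in the next lower library. For 2 d replicate 5 these were Cxcl2 at 65 CPM against 13.8 CPM in the next lower library and Vcan at 64.1 CPM against 52.1 CPM in the next lower library. For 5 d replicate 1 these were Fn1 at 409.9 CPM against 584 CPM in the next higher library and Plau at 106 CPM against 92.4 CPM in the next lower library. For 5 d replicate 3 these were Stat3 at 141 CPM against 158 CPM in the next higher library and Mmp14 at 455 CPM against 399.7 CPM in the next lower library. For 5 d replicate 4 these were Serpinf2 at 20.7 CPM against 12.1 CPM in the next lower library and Psap at 12240 CPM against 13900 CPM in the next higher library.

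The change from 2 to 5 d differed between astrocyte and flow-through libraries (interaction in edgeR, FDR under 0.01, log2 difference ± SE) for these named genes. It lay above 0 in astrocyte libraries relative to the flow-through by 7.77 ± 0.70 for Marco, 5.43 ± 0.50 for Gpnmb, 3.19 ± 0.21 for Apoe, 3.28 ± 0.23 for Ctsd, 2.79 ± 0.23 for Cdk1, 3.06 ± 0.22 for Mki67, 2.53 ± 0.26 for Top2a, 7.10 ± 0.61 for Apoc4, 4.72 ± 0.29 for C1qa, 5.98 ± 0.96 for Aspn and 6.45 ± 0.30 for Atp6v0d2. It lay below 0 in astrocyte libraries relative to the flow-through by -2.69 ± 0.32 for Hspb1, -4.06 ± 0.79 for Socs3, -3.62 ± 0.81 for Dusp1, -2.48 ± 0.21 for Hmgcs1 and -6.67 ± 0.75 for Tubb2b. The 2 d flow-through libraries carry the limits on detected genes and on sex given above.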

How the results depend on the processing

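All 7545 genes called in the astrocyte step kept their direction with DESeq2 (which called 8075), DESeq2 size factors (7528), upper quartile scaling (7522), library totals alone (7612), the edgeR 4 fit (7905), no filter (7341) and the replicate block (6910). The stricter filter called 7618, a fit of the 2 groups alone 7836 and the male 5 d libraries 7165, where 4 called genes turned. A change of 2-fold or more as a second condition left 2824 genes (2065 higher and 759 lower) and 425 of 805 called list members. Leaving out 1 library gave 6782 to 7188 genes in the astrocyte step (3606 to 3785 higher, 3156 to 3435 lower), 7041 to 8445 in the flow-through step and 4619 to 6295 for the difference. Replicate numbers of 2 d and 5 d only name libraries, their deviations correlated at −0.14 to 0.09, and with the replicate block 6910 genes were called in the astrocyte step, 7685 in the flow-through step and, with group and number as block, 5405 for the difference. Libraries with Y-linked transcripts alone called 3892 genes for the difference (2070 above and 1822 below 0); fewer libraries entered these fits. Of 148 named genes called, 144 kept the call without any 1 library (Ppbp, Mt2, Col10a1 and Fstl3 did not), and 14 lost it with the 2 remaining 2 d libraries. Xist, which was not called between the labelled groups, was -7.05 (log2) with the male 5 d libraries.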

Other observations

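Genes with the largest differences between the astrocyte and the flow-through step were chosen among those reaching 10 CPM in 1 of the 4 groups. On the high side stood Marco, Apoc4, Atp6v0d2, a proton pump subunit of osteoclasts and macrophages, and the matrix genes Col10a1 and Aspn. Atp6v0d2 was at 2.7, 2.44, 4.01, 2.33 and 2.76 CPM at 2 d and 71.2, 59.3, 55.3 and 53.8 CPM at 5 d in astrocyte libraries and at 48.2 ± 14.5 CPM at 2 d and 11.8 ± 1.06 CPM at 5 d in the flow-through. Col10a1 and Aspn were near 0 in astrocyte libraries at both times (0.0247 to 0.515 CPM and 0.0906 to 0.632 CPM), and in the flow-through they stood at 25.2 ± 17.1 CPM at 2 d and 1.71 ± 1.54 CPM at 5 d and at 35.4 ± 33.5 CPM at 2 d and 3.99 ± 0.927 CPM at 5 d, respectively. On the low side the tubulin Tubb2b was at 570.3, 622, 572, 404 and 386 CPM at 2 d and 125, 140.1, 98.3 and 131 CPM at 5 d in astrocyte libraries and at 3.09 ± 2.5 CPM at 2 d and 79.2 ± 17.1 CPM at 5 d in the flow-through. Fosl1, Bdkrb2 and Fstl3 had means of 18 to 2.65 CPM, 19 to 2.48 CPM and 12.7 to 5.19 CPM in astrocyte libraries. In the 2 d flow-through Fosl1 was listed at 0 in all 5 libraries, and Bdkrb2 and Fstl3 had means of 0.006 and 0.018 CPM, so that no fold is given for them. Xist, which is transcribed from the inactive X chromosome, also met the rule, with 0.0938 ± 0.202 CPM at 2 d and 46 ± 8.64 CPM at 5 d in the flow-through and 0.0609, 4.56, 6.43, 0.0652 and 0 CPM at 2 d and 5.65, 5.22, 4.34 and 5.03 CPM at 5 d in astrocyte libraries, where it was low in the libraries with Y-linked transcripts.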
